A study of Drosophila melanogaster with 7 samples.

Results

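Zero-width terminations are points on single labelled DNA molecules at which a rightward and a leftward replication fork were called to have met. No unlabelled or separately labelled stretch was called between the forks. Zero-width terminations were selected from the termination calls of 5 untreated libraries by a width of 0 bp, which left 1428 of 1984 calls. Each was joined to the rightward fork on its left and the leftward fork on its right on the same read. The DNA came from S2 cells, an embryonic cell line of Drosophila melanogaster, and was read by Nanopore sequencing after a pulse of EdU and then a pulse of BrdU. The short-pulse libraries, replicates 3 and 4, were labelled for 3 min with EdU and 6 min with BrdU. The long-pulse libraries, replicates 1 and 2, and a control library were labelled for 7 and 15 min. All 5 were untreated, both analogues were used at 10 µM, thymidine at 50 µM followed for 20 min, and the cells of each library came from flasks labelled together and combined. The control was sequenced on a MinION and the other 4 on a PromethION. Among the calls of a library labelled in the presence of 1 mM HU there were 0 terminations, and it entered no comparison. Its fork calls are not given here, so the 0 cannot be set against its depth.

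Replication of a chromosome ends where forks from neighbouring origins converge. The replicative helicases then meet or pass each other, the last stretch of parental DNA is copied, and the replisomes are unloaded. In metazoans most terminations are not tied to a fixed sequence, and the place of meeting follows from where and when the flanking origins fire and how fast each fork moves. On a labelled molecule a fork leaves an EdU segment followed, in its direction of travel, by a BrdU segment, and a meeting during the second pulse leaves BrdU between a pair of EdU segments.

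The libraries held 146 and 105 zero-width terminations in the short-pulse replicates 3 and 4, 438 and 658 in the long-pulse replicates 1 and 2, and 81 in the control. Terminations with a gap numbered 17, 63, 196, 227 and 53 in the same order. Zero-width calls were 89.6% (95% Wilson interval 83.9 to 93.4) and 62.5% (55 to 69.5) of the terminations of the short-pulse replicates, 69.1% (65.4 to 72.6) and 74.4% (71.4 to 77.1) of those of the long-pulse replicates, and 60.4% (52.0 to 68.3) of those of the control. These shares describe the selection, and the intervals cover counting error only. Per 100 fork calls the libraries held 4.81, 3.84, 4.22, 5.14 and 4.37 zero-width terminations, or 4.47 ± 0.508 (SD, n = 5), on 2736 to 12814 fork calls in the pulse replicates and 1853 in the control. The 1984 calls leave nothing between the classes. The narrowest gaps were 3.03, 3.58, 3.04, 3.05 and 3.22 kb, so no termination had a width above 0 and under 3 kb. Whether forks still less than 3 kb apart were called as zero-width terminations was not tested.

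The reads that carried zero-width terminations were long. Their median mapped lengths were 45.5 and 42.3 kb in the short-pulse replicates, 79.7 and 76.8 kb in the long-pulse replicates and 84.1 kb in the control. The reads with gapped terminations had medians of 53.6, 61.8, 106, 91.6 and 111 kb, longer in each of the 5 libraries, and all reads with a fork had medians of 28.2, 34.2, 53.1, 55 and 55.4 kb. On reads of 100 kb or more the zero-width share was 77.8, 54.5, 56.6, 64.9 and 46.9%, lower than over all reads in each library. Reads of both strands carried them: 708 of the 1428 lay on forward reads.

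A zero-width termination was in every case the middle of a single BrdU segment. All 1428 positions lay within 0.5 bp of the midpoint of 1 called BrdU segment that had an EdU segment on each side, and both forks ended exactly there. The BrdU lengths of the converging forks were therefore equal to within 1 bp by construction, whatever the distance each fork had covered in BrdU. The position is thus known only to within the BrdU segment. All 2856 member forks also carried the code -1 in the stall score column, a code no other fork of these libraries had, so none had a stall score.

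The BrdU segment under the termination had a median width of 3.98 and 4.66 kb in the short-pulse replicates 3 and 4, 6.19 and 6.32 kb in the long-pulse replicates 1 and 2, and 7.75 kb in the control. The interquartile range ran over 2.10 to 7.60 kb and 2.89 to 8.77 kb with the short pulses, 3.18 to 12.8 kb and 2.71 to 12.0 kb with the long pulses, and 4.19 to 14.2 kb in the control. Widths began at 1.05, 1.00, 1.00, 1.00 and 1.16 kb, near the shortest BrdU segments called anywhere in these libraries (0.860, 0.794, 1.00, 1.00 and 1.00 kb). The widest were 25.4, 21.0, 65.1, 60.6 and 50.6 kb. The quartiles of every library thus overlapped with those of each of the others. Separate BrdU segments lay less than 3 kb apart on the same read 4, 0, 13, 10 and 0 times.

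**Figure D1:**
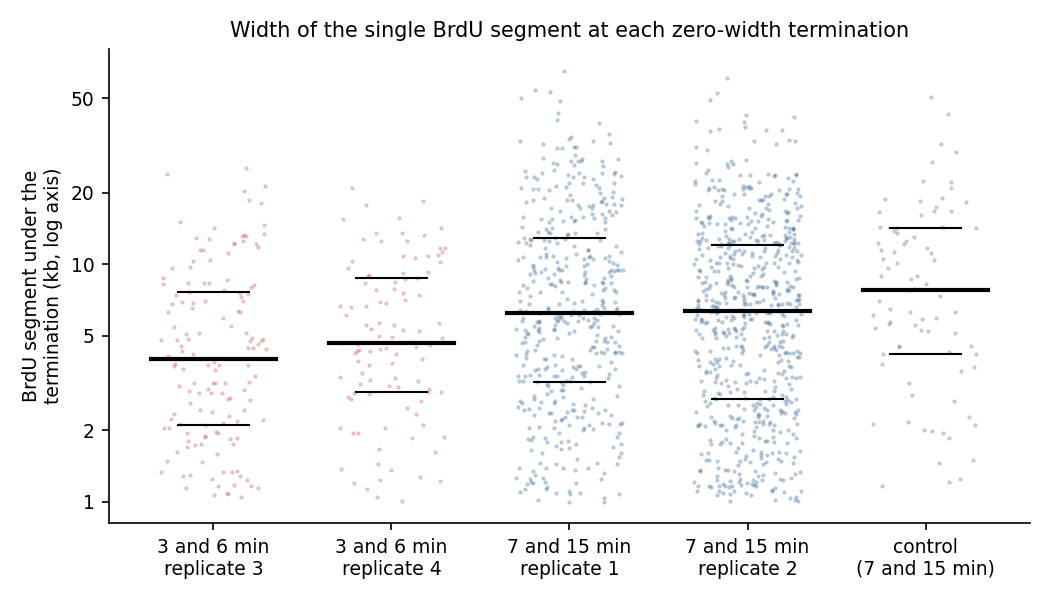
Width of the BrdU segment (kb, log axis) at each zero-width termination, 1 point per termination, for the 5 libraries, with a thick bar at the median and thin bars at the quartiles. The medians are 3.98 and 4.66 kb with the short pulses, 6.19 and 6.32 kb with the long pulses and 7.75 kb in the control, and the points of all 5 libraries start near 1 kb.

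The tracks were then compared where both were complete. Pairs whose outer ends both lay 5 kb or more from the read's ends numbered 716, and 602 of these had no fork that started at a zero-width origin, where the EdU segment is shared with the sister fork. They numbered 54 and 33 in the short-pulse replicates, 188 and 290 in the long-pulse replicates and 37 in the control. The gapped pairs chosen in the same way numbered 5, 17, 92, 96 and 21. Lone forks, complete at both ends and with no origin or termination of their read within 1 kb, numbered 292, 752, 3505, 3997 and 660. Tests were made over libraries weighted equally, by exact two-sided sign-flip of the 5 library values, for which the smallest p is 0.0625. No test here could pass 0.05. The labels do not say that replicates came from separate cultures, so these p-values measure only the spread between the samples, which may be technical.

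The BrdU covered by each converging fork, taken as the distance from the termination to the edge of the segment, was short beside that of lone forks. Its median was 1.88 and 2.36 kb in the short-pulse replicates, 2.85 and 2.94 kb in the long-pulse replicates and 4.46 kb in the control, against 5.50, 3.74, 7.04, 7.71 and 6.21 kb for the BrdU segments of lone forks. The ratios were 0.342, 0.631, 0.406, 0.381 and 0.718, all under 1. Members were selected for being called as met, and a meeting ends a BrdU segment early, so these ratios describe the choice and were not tested. In 8 of 54, 8 of 33, 35 of 188, 34 of 290 and 12 of 37 pairs the distance still exceeded the lone fork median of the library.

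The EdU segments of the converging forks were close to those of lone forks in 4 of the 5 libraries. Their lengths were not used in the selection, but the same forks were selected by a call in the BrdU pulse. The EdU lengths may thus not be independent of the selection. The median EdU segment was 3.06 and 3.69 kb in zero-width pairs of the short-pulse replicates 3 and 4, against 3.90 and 3.46 kb in their lone forks. It was 5.86 and 6.49 kb in zero-width pairs of the long-pulse replicates 1 and 2, against 5.61 and 6.27 kb in lone forks. In the control it was 5.94 kb in zero-width pairs and 5.56 kb in lone forks. The log2 ratio was between 0.05 and 0.09 in 4 libraries and -0.35 in replicate 3, with a mean of -0.01 ± 0.19 (SD, n = 5; exact sign-flip p = 1). Without replicate 3 the mean was 0.07, positive in each of the other 4 libraries. Replicate 3 also had the shortest reads of the 5 libraries, with a median of 28.2 kb over all reads with a fork, and its lone forks were the fewest. Whether read length plays a part in its value was not tested.

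Zero-width pairs had longer EdU segments than gapped pairs in 4 of 5 libraries. A gapped pair also had to fit its gap inside the read. Over all gapped terminations the median gap was 7.51 to 15.2 kb by library. Whether this plays a part in the difference was not tested. Gapped pairs had median EdU segments of 4.35 kb from only 5 pairs in replicate 3, 2.65 kb in replicate 4, 5.29 and 5.58 kb in the long-pulse replicates 1 and 2, and 5.29 kb in the control. The log2 ratio of zero-width over gapped pairs was -0.51, 0.48, 0.15, 0.22 and 0.17 in that order. Its mean was 0.10 ± 0.36 (SD, n = 5), and the exact sign-flip p was 0.562 (0.72 after Benjamini-Hochberg adjustment over 9 sign-flip tests). Without replicate 3 the mean was 0.25, and with outer ends 10 kb or more from the read's ends, which left 4 libraries, it was 0.27 and positive in all 4 (exact sign-flip p = 0.125, the smallest for 4 libraries). On reads of 100 kb or more the mean was 0.06, positive in 3 of 5 libraries (exact sign-flip p = 0.875). Without replicate 4 the mean was 0.0060, and with DNAscent 4.0.3 calls alone, which also left 4 libraries, it was -0.03, positive in 2.

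**Figure D2:**
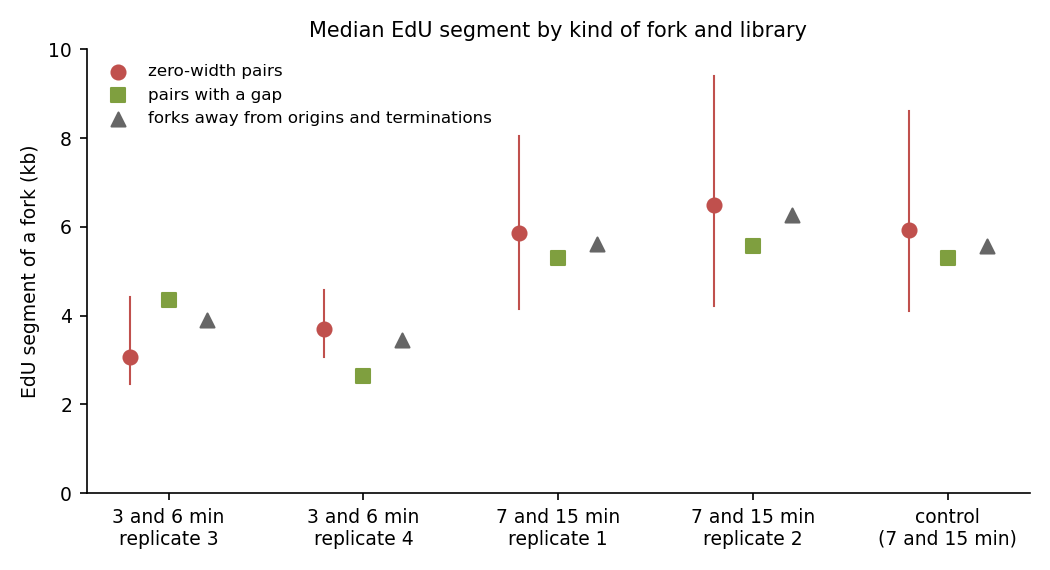
Median EdU segment (kb) of forks in zero-width pairs, in pairs with a gap, and of forks away from origins and terminations, for the 5 libraries, with lines from the lower to the upper quartile for zero-width pairs. Zero-width pairs lie above both other kinds of fork in 4 libraries and below both in the short-pulse replicate 3, at 3.06 kb.

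In most zero-width pairs the EdU segments differed by less than 2-fold. The longer was a median of 1.24 and 1.15 times the shorter in the short-pulse replicates, 1.29 and 1.22 times in the long-pulse replicates, and 1.24 times in the control. A difference of 2-fold or more was seen in 7 of 54, 3 of 33, 32 of 188, 53 of 290 and 7 of 37 pairs, or 15.3 ± 4.15% (SD, n = 5). On the log2 scale the EdU lengths of the pair correlated at r = 0.453, 0.716, 0.447, 0.541 and 0.545 across these pairs, and the points of a library share its labelling, its read lengths and its caller. On reads of 100 kb or more r was 0.740, 0.868, 0.481, 0.577 and 0.780, over only 12, 9, 85, 110 and 20 pairs. Gapped pairs, treated alike, gave r = 0.502, 0.692, 0.559, 0.405 and 0.238, and sister forks leaving an origin with a gap gave -0.05, 0.35, 0.47, 0.47 and 0.68 over 12, 24, 89, 110 and 23 pairs. The inequality of the EdU segments, as the median absolute log2 ratio, was 0.295 ± 0.0617 in zero-width pairs and 0.380 ± 0.0781 in gapped pairs (SD, n = 5 each). It was smaller in zero-width pairs in 4 of 5 libraries, by 0.09 on average (exact sign-flip p = 0.125, adjusted p = 0.72), and the difference ran the other way, at 0.03, without the filter on read ends. In the sister forks the inequality was 0.445, 0.471, 0.323, 0.340 and 0.282. It was smaller than in zero-width pairs in the long-pulse replicate 1 and the control, and larger in the short-pulse replicates and the long-pulse replicate 2. Forks of different molecules were not paired for comparison.

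**Figure D3:**
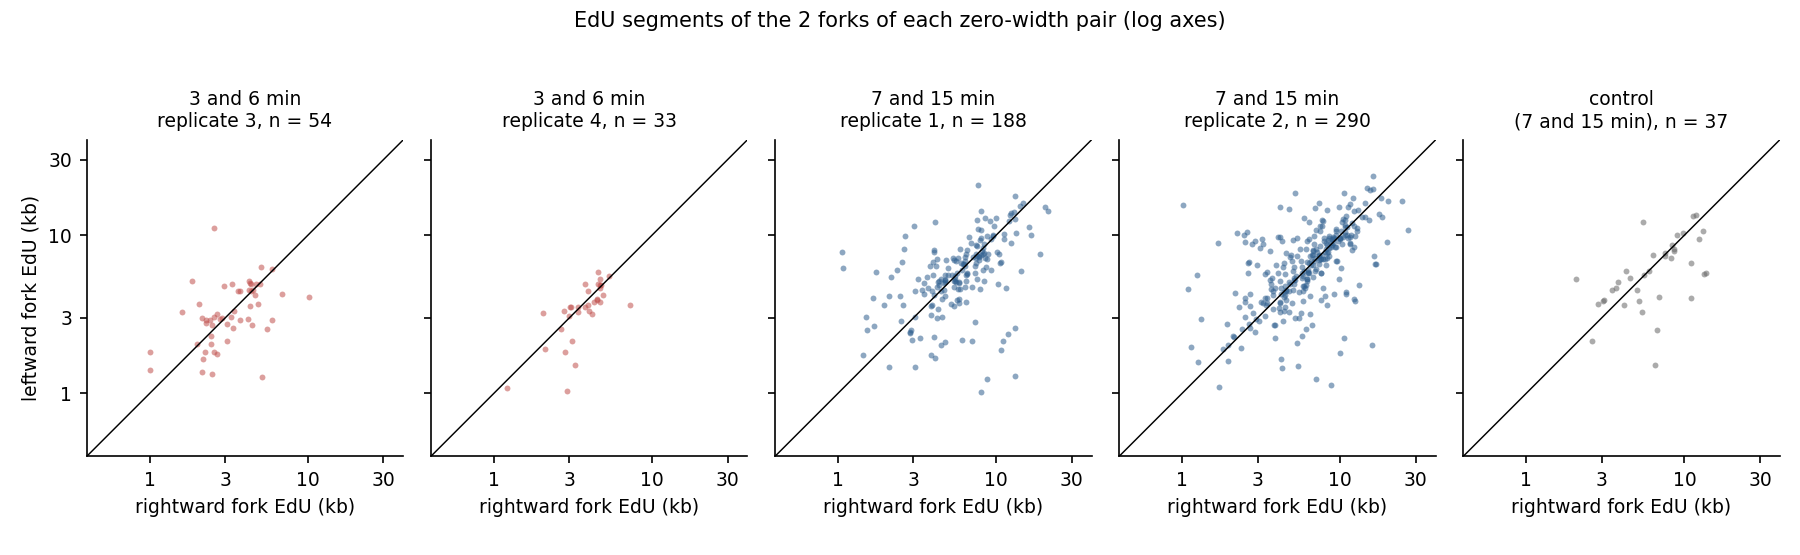
EdU segment of the leftward fork against that of the rightward fork (kb, log axes) for the 602 complete zero-width pairs, 1 panel per library, with the line of equal lengths. Points gather along the line in each panel, with r between 0.447 and 0.716, and pairs far from it are found on both sides.

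The most equal and the most unequal pairs were named among the 534 whose outer ends lay 10 kb or more inside the read, and are described without a test. In replicate 3 a termination at 11400470 on chromosome 3R, inside pros, which encodes a homeodomain transcription factor of neural differentiation, had tracks of 12.08 kb on both sides and a BrdU segment of 11.5 kb. In the long-pulse replicate 2 a termination at 4212750 on 2L, inside ft, the gene of the atypical cadherin Fat, had a rightward track of 17.15 kb and a leftward track of 17.14 kb. In replicate 1 a termination at 13719825 on 2L, outside protein-coding genes, had 13.90 and 13.88 kb. The rightward and leftward EdU segments of these equal pairs were 4.47 and 4.52 kb at pros and 7.31 and 7.35 kb at ft. They were less alike, at 11.25 and 9.52 kb, in the pair at 13719825. The most unequal pair, at 4573901 on 3R in replicate 2, had a rightward track of 3.64 kb and a leftward track of 19.18 kb, a ratio of 5.27. The next 2 lay at 23856444 on 2R in replicate 2, inside bgcn and Pym, with 2.01 and 9.51 kb, and at 21866327 on 2L in replicate 1, with 2.84 and 11.71 kb. Both of these had an origin call at the start of 1 fork, of zero width at the shorter track in the first and with a gap at the longer track in the second. The EdU segment at a zero-width origin is shared with the sister fork. Since the BrdU parts are equal by construction, unequal tracks differ only in the rest of the track.

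Of converging forks on a single read, the fork that runs along the read's own 5′ to 3′ direction is read on its leading strand and the other on its lagging strand, so each pair gives a comparison within the molecule. Leading tracks had medians of 6.51 and 8.21 kb in the short-pulse replicates, 11.2 and 11.5 kb in the long-pulse replicates and 11.8 kb in the control, and lagging tracks 7.06, 7.66, 11.2, 11.4 and 11.9 kb. Leading over lagging, the mean log2 ratio was -0.02, 0.02, 0.02, -0.03 and -0.10. It averaged -0.02 ± 0.05 (SD, n = 5; exact sign-flip p = 0.5, adjusted p = 0.72), positive in 2 of 5 libraries. These tracks contain the BrdU parts set equal by the call, which pull the ratio of whole tracks towards 0. For the EdU segments alone it averaged 0.00 ± 0.08 (exact sign-flip p = 1).

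Without the filter on read ends this comparison looked different. Over all 1271 pairs with no fork at a zero-width origin, the EdU segment of the leading track had medians of 3.63, 3.73, 5.93, 6.54 and 5.96 kb, against 3.03, 3.62, 5.03, 5.73 and 5.17 kb for the lagging track. The mean log2 ratio was 0.12 and positive in 5 of 5 libraries (exact sign-flip p = 0.0625, the smallest possible). The outer end of the leading track, which faces the start of the read, lay under 5 kb from that read end in 30.1, 37.8, 23.1, 21.8 and 12.2% of pairs. The outer end of the lagging track, which faces the end of the read, did so in 41.2, 46.7, 30.1, 30.9 and 39.2%. Lagging outer ends were thus nearer to a read end in every library. In the complete pairs the EdU ratio averaged 0.00, from -0.12 in the control to 0.09 in the long-pulse replicate 1. Complete pairs on reads of 100 kb or more gave 0.04, positive in 4 of 5 libraries. With outer ends 10 kb or more inside the read it was 0.02, positive in 3 of 5. Whether read ends account for the ratio without the filter was not tested.

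Rightward tracks had medians of 7.00, 8.22, 11.2, 11.1 and 12.7 kb and leftward tracks 6.87, 7.43, 11.2, 11.6 and 10.4 kb in the same order of libraries. The mean log2 ratio was -0.05, 0.08, 0.01, -0.05 and 0.15, with an average of 0.03 ± 0.09 (SD, n = 5; exact sign-flip p = 0.562, adjusted p = 0.72). The equal BrdU parts pull this ratio towards 0 as well. The EdU segments alone had medians of 3.19, 3.94, 5.96, 6.33 and 6.53 kb in rightward forks and 3.01, 3.54, 5.79, 6.73 and 5.65 kb in leftward forks. Their mean log2 ratio, added once the values were known and not tested, averaged 0.06 ± 0.08 (SD, n = 5) and was positive in 4 of 5 libraries.

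The whole labelled stretch of a zero-width pair, from the start of EdU on the left to the start of EdU on the right, was shorter with the short pulses. The median span was 13.9 and 15.4 kb in the short-pulse replicates 3 and 4, against 22.8 and 22.4 kb in the long-pulse replicates 1 and 2, and 24.0 kb in the control. The schemes did not overlap in these medians, and the ratio of short over long was 0.648 (log2 -0.63; exact two-sided permutation test over 4 libraries, p = 0.333, the least it can give). The BrdU segment in the middle of complete pairs was 3.76 and 4.72 kb with the short pulses, against 5.71 and 5.87 kb with the long pulses and 8.92 kb in the control, a ratio of 0.727 of short over long pulses (exact permutation p = 0.333). The BrdU pulse lasted 6 min in the short scheme and 15 min in the long. Per min of BrdU the segment measured 0.627 and 0.786 kb with the short pulses, against 0.381 and 0.392 kb with the long pulses, and 0.595 kb in the control. These values are not fork speeds and do not compare speed between schemes. Both forks were called in the segment, and its growth would have stopped when they met, at an unknown time in the pulse. The short-pulse and long-pulse replicates share no replicate numbers, so the pulse scheme and any batch of these libraries cannot be told apart. The caller version differed as well. All pairs of replicates 3 and 4 were called with DNAscent 4.0.3, and 19 of 188 and 17 of 290 of those of replicates 1 and 2. Those 19 and 17 pairs had median BrdU segments of 3.68 and 4.20 kb and spans of 16.4 and 17.3 kb. Within version 4.0.3, a restriction added once the values were known, the log2 ratio of short over long pulses was 0.10 for the BrdU segment and -0.20 for the span.

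Some molecules also showed the origins from which the converging forks came. An origin was called on the read of 285 of the 1428 members, and 20 had an origin on both sides: 2 in replicate 3, 0 in replicate 4, 5 and 10 in the long-pulse replicates 1 and 2, and 3 in the control. In these 20 the midpoints of the flanking origins lay 10.8 to 59.5 kb apart, with a median of 34.9 kb, on reads of 39.9 to 261 kb. Only intervals that fit on a single read could be seen. In 11 of the 20 the termination lay within 10 percentage points of the middle of the interval, and the median distance from the middle was 4.77 points. These positions are midpoints of BrdU segments that filled 4.42 to 72.8% of the interval, with a median of 34.5%, so closeness to the middle is partly set by the call. The farthest lay 33.1 points from it, inside Atg6, the gene of the autophagy factor Beclin 1, at 24050618 on 3R in the control, with origins 16.1 kb to its left and 3.27 kb to its right.

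The longest of these reads, of 261 kb in the long-pulse replicate 1, carried 5 forks, 2 origins and 2 terminations, and its zero-width termination lay at 3271833 on 2R with origins 12.4 kb to the left and 22.2 kb to the right. The widest interval, of 59.5 kb, was in the long-pulse replicate 2 around 13186614 on 2R, inside Kdm4B, a histone demethylase gene, CG17724 and seq, with origins 15.5 kb to the left and 44.0 kb to the right. In the control a read of 138 kb held a termination at 9929012 on 2L, inside CG42366, almost in the middle, with origins 20.4 and 19.5 kb away. On chromosome 4, a termination inside Ekar, a kainate-type glutamate receptor gene, at 642774 in the long-pulse replicate 1, lay 17.1 and 18.3 kb from its origins. Another of that replicate lay inside the Hox gene Ubx at 16671604 on 3R, 26.3 and 12.2 kb from its origins. Of the 265 members with an origin on 1 side, the origin lay a median of 12.9 kb away, with quartiles of 7.38 and 21.9 kb. The medians were 8.84 and 7.07 kb with the short pulses, 15.1 and 12.2 kb with the long pulses and 16.5 kb in the control.

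**Figure D4:**
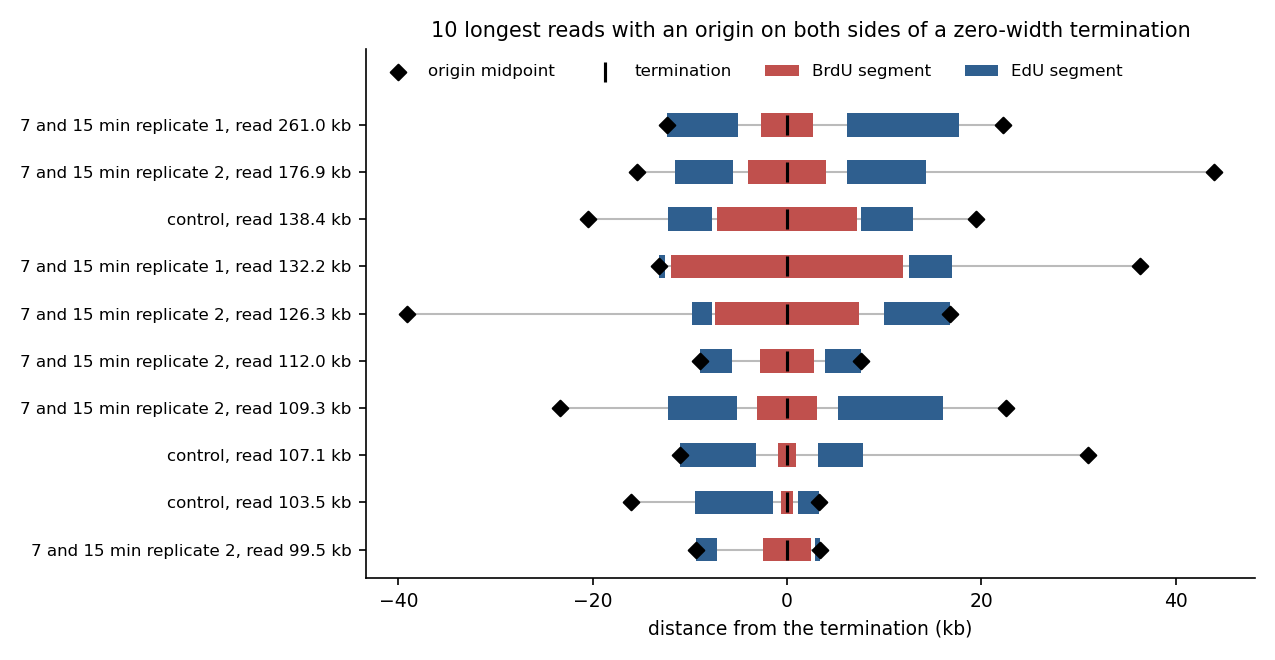
The 10 longest reads with an origin on both sides of a zero-width termination, each row a read centred on the termination (distance in kb), with the BrdU segment in red, the EdU segments in blue and the midpoints of the origins as diamonds. The termination is close to the middle of the interval in some rows, as on the control read of 138 kb, and far from it in others, as on the control read of 103 kb.

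Zero-width terminations were found on every main arm. Of the 1428, 1427 lay on the main arms, with 269 on 2L, 304 on 2R, 291 on 3L, 361 on 3R, 20 on chromosome 4 and 182 on X. Per 100 forks of the arm they numbered 4.11 ± 0.645 on 2L, 4.82 ± 1.33 on 2R, 4.20 ± 1.03 on 3L, 4.4 ± 0.655 on 3R, 5.92 ± 4.66 on chromosome 4 and 5.44 ± 0.637 on X (SD, n = 5 libraries). The ranges over libraries of the large autosomal arms overlapped with each other and with that of X, 4.37 to 6.02. Chromosome 4 rested on 299 forks in all. Its rate per 100 forks ran from 0 to 12.5 over libraries. Zero-width calls were 20 of the 22 terminations of chromosome 4 (90.9%, 95% Wilson interval 72.2 to 97.5) and 67.3 to 75.8% of those of the other arms. These shares pool the libraries, and the interval covers counting error only, not the spread between libraries.

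Each position was set against the share of its own read in the same class, which takes account of where reads fell. Protein-coding genes held 68.5 and 64.8% of the members of the short-pulse replicates 3 and 4, 71.7 and 69.4% of those of the long-pulse replicates 1 and 2, and 72.8% of those of the control. They held 65.6, 64.7, 70.4, 69.7 and 73.1% of the length of the members' own reads in that order. The difference was 0.753 ± 1.36 percentage points (SD, n = 5; exact sign-flip p = 0.438, adjusted p = 0.72), positive in 3 of 5 libraries. Within 1 kb of a gene end, 24.8 ± 2.88% of members were found, and 25.4 ± 1.65% of their reads lay there, a difference of -0.650 ± 1.77 points (exact sign-flip p = 0.5, adjusted p = 0.72). Within 5 kb of an origin called in another of the 5 libraries, 10.3 ± 4.20% of members were found, against 9.07 ± 2.29% of the length of their reads, a difference of 1.27 ± 2.13 points, positive in 4 of 5 libraries (exact sign-flip p = 0.312, adjusted p = 0.72). That difference was 4.51 points in replicate 3 and between -1.05 and 1.98 points elsewhere. Since a termination is the midpoint of a BrdU segment several kb wide, a preference on a scale finer than that could not be seen in these positions.

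**Figure D5:**
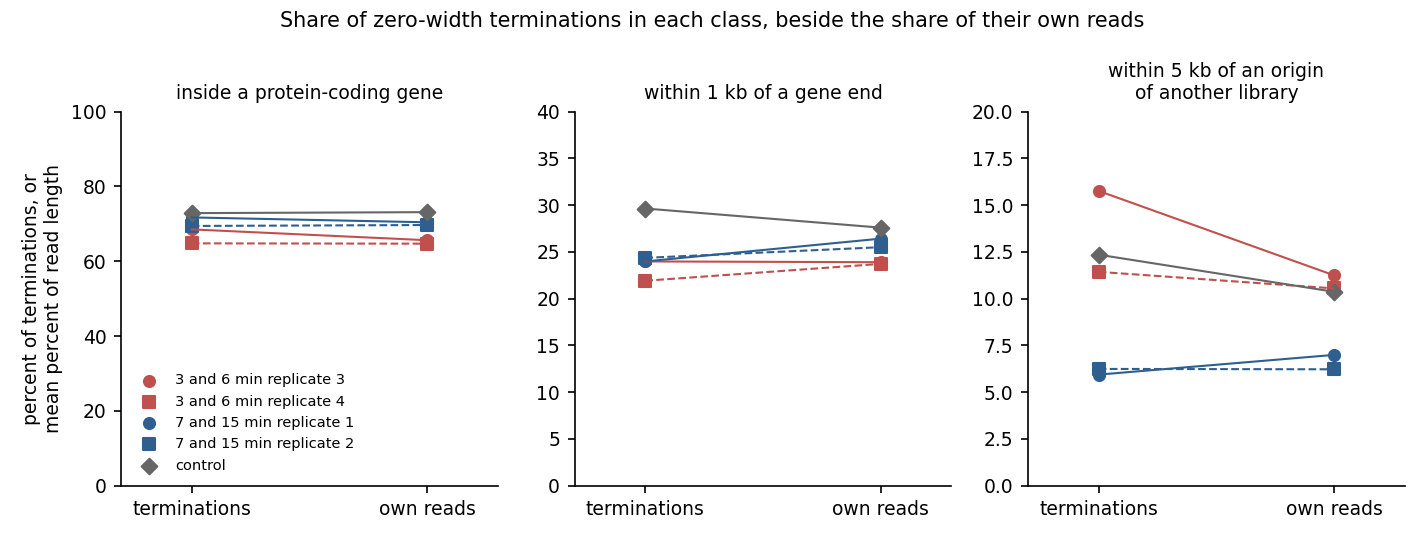
Percent of zero-width terminations inside protein-coding genes, within 1 kb of a gene end and within 5 kb of an origin called in another library, each beside the mean percent of the length of their own reads in the same class, for the 5 libraries. The lines are nearly level in the first panel, and in no panel do all 5 libraries slope the same way.

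Genes of each length class held members about as often as their share of the members' reads. Genes under 10 kb held 22.7 ± 3.61% of the members and 22.8 ± 1.62% of the length of their reads. Genes of 10 to 50 kb held 27.2 ± 3.49% and 26.1 ± 3.7%, and genes of 50 kb or longer 22.2 ± 1.51% and 22.0 ± 1.99% (SD, n = 5 libraries each). The differences of -0.09 ± 3.18, 1.11 ± 2.80 and 0.16 ± 1.04 points were smaller than the spread between libraries. Over all libraries 854 of the 13922 protein-coding genes on the main arms held a member. Their median length was 17.1 kb, against 2.16 kb over all genes, and long genes offer more positions.

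Places that held zero-width terminations in several libraries were counted. Members fell in 1334 tiles of 10 kb, of which 59 held members of at least 2 libraries and 0 of 3 or more. The number of shared tiles expected from the library counts alone was not computed, so the 59 are no measure of recurrence. The tile with most was 12700001 to 12710000 on X, with 4 members on 4 reads of the long-pulse replicates 1 and 2, spread over 8.02 kb. Genes named for a tile are those at or nearest to the mean position of its members, and single members may lie outside them. For this tile the gene was Smr, which encodes a nuclear corepressor. Next came 20070001 to 20080000 on 2L at neb, a kinesin gene, with 3 members of the long-pulse replicate 1 and the control, and 22950001 to 22960000 on 2L, 13.2 kb from lt, a gene of pericentric heterochromatin, with 3 of the long-pulse replicates 1 and 2. The other 12 tiles named by position each held 2. Among these was 10320001 to 10330000 on 2L, with its mean position inside RnrL. That gene encodes the large subunit of ribonucleotide reductase, the enzyme inhibited by hydroxyurea (HU in common usage). Another was 16340001 to 16350000 on 2L, with its mean position inside chif and Hyls1, where chif encodes the Dbf4-related partner of the Cdc7 kinase in origin firing. Others had their mean position inside oaf, lilli, which encodes a protein of the AF4 family, nAChRalpha6, da, which encodes a basic helix-loop-helix factor, MFS17 and dpr21. The remaining 4 were closest to CG13110, Cpr35B, a cuticle protein gene, clumsy and Haspin, a histone H3 kinase gene. The members of a tile lay 1.02 to 8.02 kb apart. These tiles were chosen for holding several libraries, so their counts support nothing by themselves.

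Of the 854 genes, 110 held members of at least 2 libraries and 15 of at least 3. The numbers expected from gene length and library counts alone were not computed. Only Myo81F, a myosin gene of 1966 kb in the pericentromeric part of 3R, held members of all 5, with 9 on 9 reads. The 9 reads lay wholly inside the gene, so that the shares of the members' reads inside the gene also summed to 9. Its BrdU segments ranged from 1.14 kb to 60.6 kb. DIP-lambda, a cell surface protein gene of 379 kb, held 5 members in 3 libraries, where the shares of the members' reads inside the gene summed to 4.56. Dscam1, the immunoglobulin receptor gene known for its many splice forms, held 4 against a sum of 3.68. Dys, the dystrophin gene, held 4 against 3.22, and dpr21, an immunoglobulin family gene, 4 against 4.28. The other 10 held 3 members each, against sums of 1.50 to 3.51: nAChRalpha6, a nicotinic acetylcholine receptor subunit, CG43861, MFS17, a transporter, Nipped-A, the TRRAP homologue of histone acetyltransferase complexes, mbl, a splicing regulator, Rgk1, a small GTPase, Fili, Snap25, a SNARE protein of synaptic vesicle release, Ubx and plum. These genes were chosen for holding members of several libraries, so a count above its sum supports nothing by itself.

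Another 5 gene lists were also counted. Among 20 long neuronal or developmental genes, with a median length of 123 kb, 15 held 25 members in all, where their reads' shares summed to 24.9. The cell surface gene Ten-a held 3 of these, against 2.73, and fru, a zinc finger gene of the sex determination pathway, held 4, against 3.03. Of the 8 Hox genes, 3 held 5 members (Antp 1, Ubx 3 and abd-A 1), against a sum of 3.96. Of 17 replication factor genes, 2 held 1 member each, Orc4, a subunit of the origin recognition complex, and Mcm2, a subunit of the replicative helicase, against a sum of 0.358. Members were found in 0 of 92 ribosomal protein genes, against a sum of 1.62, and in 0 of 118 histone genes, against 0.566. Of these genes 59 and 70 lay under the read of a member, and their lists had median lengths of 1.31 and 0.529 kb. Under such a read also lay 9 of the 17 replication factor genes, 4 of the 8 Hox genes and 17 of the 20 long genes. No test was made of these counts.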

How the data were processed

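Nanopore reads of EdU and BrdU labelled DNA were mapped with minimap2 2.24 and handled with SAMtools 1.10 on the dm6 build, per the submitters' processing notes, and DNAscent forkSense, version 4.0.1 or 4.0.3 per the file headers, called the forks and the points where they begin and meet. The authors' deposited files gave positions and the lengths in bp of tracks and segments, counted from 1 in the text. The deposited fractions per fork were not used, because which analogue each counts is not given in the file. The authors' stall score was used only for its code -1.

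Terminations of equal start and end were joined to the nearest rightward fork on the left and leftward fork on the right, within 1 kb. Python 3.11.15 was used with scipy 1.17.1, pandas 2.3.3, numpy 2.4.6 and matplotlib 3.10.9. Library values were tested by exact sign-flip over 5 libraries or exact permutation of 2 against 2, and the calculation was tested on simulated data. Depth was 1853 to 12814 fork calls per library. Gene spans, without strand or exons, were those of RefSeq for the assembly Release 6 plus ISO1 MT, which is the release of dm6. Members and lists were chosen with earlier results of these data known. The planned comparison of BrdU lengths within a pair was not made, because these lengths are equal by construction, and EdU lengths were compared instead. That comparison, the EdU lengths by strand, the origins of other libraries and the width of the BrdU segment were added after the data were seen. Named tiles held at least 2 libraries and named genes at least 3 (up to 15 of each), named pairs were the 3 most equal and 3 most unequal, and flanked reads were taken by length, with those at Ekar and Ubx chosen after their values were seen. Alternatives changed the read end filter, read length, weighting, join distance, gene end distance, caller version and the libraries used.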

Additional observations from a re-analysis of the deposited data

Results flagged for a closer look

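Of 17 quantities compared over the 5 libraries, 2 held a library whose gap to the nearest other was large beside the whole range by Dixon's criterion at 95%, which chance meets in about 1 of 20 groups. The log2 ratio of the EdU segment in zero-width pairs over lone forks was -0.35 in the short-pulse replicate 3 and 0.05 to 0.09 in the other 4 libraries. The share of zero-width terminations in the central 50% of the length of the read was 71.4% in the short-pulse replicate 4 and 55.6 to 58.4% in the others. No result had opposite signs in every short-pulse and every long-pulse library.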

How the results depend on the processing

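No call could pass the threshold of 0.05 under any setting, so only directions and sizes are compared. Values are log2 ratios unless given in percentage points. Without the filter on read ends the means were 0.0043 for EdU in zero-width pairs over lone forks, 0.034 for leading over lagging tracks, -0.021 for rightward over leftward tracks and 0.0305 for EdU inequality in zero-width minus gapped pairs, each the reverse of the main direction. On reads of 100 kb or more leading over lagging tracks gave 0.0176. With forks pooled over libraries EdU over lone forks was 0.0375 and rightward over leftward tracks -0.0126. With pairs kept that start at a zero-width origin, leading over lagging EdU was -0.0058. With DNAscent 4.0.3 calls alone, EdU over gapped pairs was -0.0314, leading over lagging EdU -0.0579, rightward over leftward tracks -0.0078 and the BrdU segment of short over long pulses 0.10. The last 2 settings, and the results on EdU by strand, EdU inequality, the BrdU segment and origins of other libraries, were added after the data were seen. A join within 0.1 kb changed nothing. All other alternatives kept the direction, and the span of the pair and the 3 position results kept it under each alternative run for them.

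Leaving out 1 library at a time gave -0.0373 to 0.0744 for EdU over lone forks, 0.0060 to 0.252 for EdU over gapped pairs, -0.0321 to -0.00067 for leading over lagging tracks and -0.0184 to 0.0335 for their EdU. It gave -0.0025 to 0.0474 for rightward over leftward tracks, -0.11 to -0.06 for EdU inequality, -0.70 to -0.55 for the span and -0.62 to -0.30 for the BrdU segment. In percentage points it gave 0.219 to 1.01 for genes, -1.32 to -0.204 for gene ends and 0.459 to 1.85 for origins of other libraries. No paired analysis was possible because the pulse schemes compared share no replicate numbers. BrdU inequality within a pair was tried under no setting, since those lengths are equal by construction. The gapped comparison rests on 5 pairs in the short-pulse replicate 3, and the 4.0.3 comparison on 19 and 17 pairs.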
